A study of Mus musculus with 7 samples.

Results

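The genes described here give a myeloid cell its identity or sit on its surface: Spi1, Itgam, Itgax, Tyrobp, Hcst, Sirpa, Cd33, Siglece and Plac8. They were taken as the rows of the count table that carry these symbols, and each symbol matched 1 row, giving 9 genes of 20343 complete rows. Polyadenylated RNA was sequenced from the heart apex of 7 mice of the strain NSG-DRB1*0101, also written NSG-DR1, which the labels give for both groups. The 4 control hearts came from mice left untreated. The 3 transferred hearts came from mice sampled 6 weeks after receiving human CD4+ T cells, so the host cells were those of the same strain in both groups. NSG mice are immunodeficient and lack mature T cells, B cells and natural killer cells of their own. Their macrophages and dendritic cells are present but partly defective, which limits them as a model of a complete immune response. The labels give neither age nor sex, and p-values measure the spread between these hearts alone.

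Myeloid cells arise under the transcription factor PU.1, the product of Spi1, which binds purine-rich DNA around the letters GGAA and switches on genes of monocytes, macrophages, granulocytes and dendritic cells. Itgam and Itgax encode the alpha chains CD11b and CD11c, which pair with a shared beta-2 chain and bind complement fragments, fibrinogen and adhesion molecules. Tyrobp and Hcst encode DAP12 and DAP10, small membrane adaptors that lend a signalling tail to receptors that have none: DAP12 carries an immunoreceptor tyrosine-based activation motif (ITAM) that recruits Syk, and DAP10 carries a motif that recruits phosphoinositide 3-kinase. Sirpa and Siglece encode inhibitory receptors, and Cd33 encodes a relative of Siglec-E whose mouse form lacks the usual inhibitory motif of the human protein. SIRP-alpha binds CD47, the signal against being engulfed, and CD33 and Siglec-E bind sialic acid. Plac8 encodes a small cysteine-rich protein expressed by several leukocytes, monocytes and neutrophils among them. In a healthy heart such genes are read in resident macrophages among other cells, and bulk tissue does not show which cells read each gene.

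Over the analysed part of the table, which covers chromosomes 1 to 7 and the start of chromosome 8, the column totals lay between 16402194 and 25190580 counts. Since genes elsewhere are not counted in them, they do not give library depth. Levels are given as CPM, the count scaled to a fixed total with TMM factors. A count of 3, the floor used here, corresponded to 0.115 to 0.189 CPM, which covers counting error only. The tissue label held: Myl2, the ventricular myosin light chain, averaged 19968 CPM, the highest of the 5 cardiomyocyte markers in the table. Of the 9 genes, 8 passed the filter on low counts. Hcst failed it, and Itgax passed through the transferred hearts only, since 0 of 4 control hearts but 3 of 3 transferred hearts reached the filter level of 0.485 CPM.

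Of the 9 genes, 6 lie on chromosome 7 in 3 pairs (build GRCm38). Tyrobp (30413782 to 30417582, plus strand) and Hcst (30417712 to 30419854, minus strand) stand end to end, 129 bases apart. Cd33 (43527399 to 43537424, minus strand) and Siglece (43648882 to 43672044, minus strand) lie in the Siglec cluster. Itgam (128062640 to 128118491) and Itgax (128129526 to 128150657), both on the plus strand, follow each other with 11034 bases between them. Spi1 (91082374 to 91115759) and Sirpa (129591042 to 129632228) are on the plus strand of chromosome 2, and Plac8 (100551589 to 100572253) is on the minus strand of chromosome 5. All 9 are annotated as protein-coding, and the table gives a combined exon length for each.

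Promoter sequences of RefSeq (GRCm38.p6) matched 6 of the 9 genes, with 7 promoters among them. Each window runs from 250 bases before the start of the transcript to 50 bases from it. The windows of Siglece and Cd33 and the second of Plac8 lie wholly inside the gene coordinates given above. They belong to transcript starts within those coordinates, not at the outer end of the gene. They were searched for GAGGAA on either strand (read as TTCCTC on the other), a core that PU.1 and other factors of the ETS family can bind. Matches do not overlap each other. The letters occurred in 4 of the 7 windows, those of Itgam, Siglece, Cd33 and the first of Plac8, and in 28.3% of the 32851 windows of this length in the RefSeq table. Itgam and Siglece held 3 matches each, Plac8 held 2 and Cd33 held 1, while Itgax, Hcst and the second Plac8 window held 0. The windows with 2 or more matches are printed below with that of Itgax, the neighbour of Itgam, for contrast, 5′ to 3′ on the strand of the gene, with the matched letters in capitals.
Itgam, chr7:128062390-128062689, plus strand: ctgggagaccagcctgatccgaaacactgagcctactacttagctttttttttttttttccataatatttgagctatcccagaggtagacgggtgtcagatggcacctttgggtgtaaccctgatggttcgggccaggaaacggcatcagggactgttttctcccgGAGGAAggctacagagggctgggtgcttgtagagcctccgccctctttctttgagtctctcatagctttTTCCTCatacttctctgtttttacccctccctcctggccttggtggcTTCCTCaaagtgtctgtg
Siglece, chr7:43660112-43660411, minus strand: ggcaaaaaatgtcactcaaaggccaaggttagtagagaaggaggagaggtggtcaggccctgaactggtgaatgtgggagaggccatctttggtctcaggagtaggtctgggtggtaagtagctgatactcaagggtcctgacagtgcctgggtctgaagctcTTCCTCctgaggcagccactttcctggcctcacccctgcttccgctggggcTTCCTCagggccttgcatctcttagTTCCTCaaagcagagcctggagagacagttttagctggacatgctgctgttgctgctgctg
Plac8, chr5:100572156-100572455, minus strand: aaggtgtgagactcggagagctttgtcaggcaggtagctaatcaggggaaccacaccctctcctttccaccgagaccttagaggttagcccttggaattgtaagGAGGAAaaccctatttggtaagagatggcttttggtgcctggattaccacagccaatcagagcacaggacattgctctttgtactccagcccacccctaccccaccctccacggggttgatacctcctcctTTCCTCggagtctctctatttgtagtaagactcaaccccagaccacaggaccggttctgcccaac
Itgax, chr7:128129300-128129599, plus strand: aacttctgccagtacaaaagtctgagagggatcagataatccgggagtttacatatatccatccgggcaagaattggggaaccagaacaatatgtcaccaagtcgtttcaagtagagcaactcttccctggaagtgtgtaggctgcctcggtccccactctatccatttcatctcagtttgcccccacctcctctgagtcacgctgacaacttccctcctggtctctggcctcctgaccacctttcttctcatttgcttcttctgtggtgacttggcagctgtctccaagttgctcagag
Counted from the first base of the transcript as 0, the Itgam matches began at -84, -15 and 32, those of Siglece at -87, -36 and -11, and those of Plac8 at -146 and -15. A match describes the letters in the window and does not show binding.

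Whether these genes differed after the transfer was tested with the edgeR quasi-likelihood test, fitted on all 7667 tested genes with Benjamini-Hochberg adjustment. No member passed the adjusted threshold of 0.05: 0 of the 8 tested members did, while 0.130% of all tested genes were called higher and 0.235% were called in either direction. Leaving out Itgax, which had to be high in the transferred hearts to be tested, 7 of 7 had a higher fitted level in the transferred hearts with an unadjusted p under 0.05, beside 7.17% of all tested genes. Of these 7, 6 had every transferred heart above every control heart, against 6.00% of tested genes. The exception was Cd33, and 0 of them had every transferred heart below every control heart, against 5.22% of tested genes. A fold change above 0 was found for 49.7% of all tested genes. The members were chosen with earlier results of these data known, so these counts describe them and are no test of the group. DESeq2 called 5 members higher (Plac8, Itgam, Spi1, Tyrobp and Siglece). It called higher 1.57% of the 12129 genes with a p-value, of which fewer had an adjusted p. Limma-voom called 0, with 7 of the 7 members other than Itgax at an unadjusted p under 0.05. Other settings of edgeR gave 1 member with column total scaling (Plac8, 0.339% of genes higher) and 2 among all genes with at least 1 count (Spi1 and Itgam, 0.544%). Without transferred heart 3 it was 4 (Spi1, Itgam, Siglece and Plac8), where 1.64% of genes were called higher. In bulk tissue, more cells of a type and more RNA per cell cannot be told apart.

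**Figure D1:**
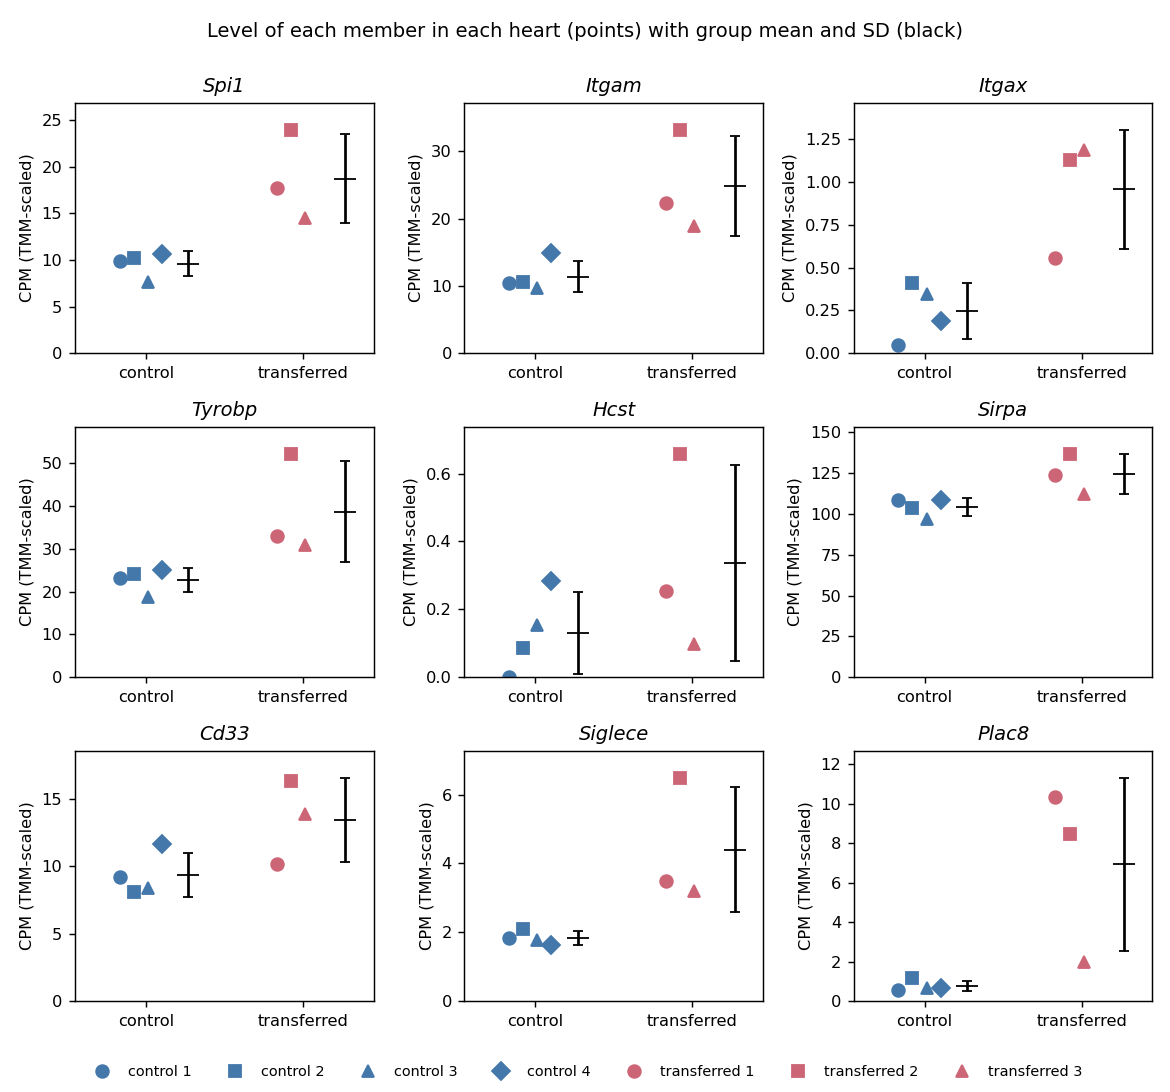
Level of each of the 9 genes in CPM with TMM scaling (vertical axes, each starting at 0) in the 4 control hearts (blue) and the 3 transferred hearts (red), with the group mean and SD in black; symbols give the heart's number. Transferred heart 2 is the highest of the 7 hearts for Spi1, Itgam, Tyrobp, Hcst, Sirpa, Cd33 and Siglece, transferred heart 1 for Plac8 and transferred heart 3 for Itgax.

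Spi1, the gene of PU.1, stood at 9.92, 10.2, 7.68 and 10.6 CPM in control hearts 1 to 4 and at 17.7, 23.9 and 14.5 CPM in transferred hearts 1 to 3. The groups did not overlap, and transferred heart 2 was the highest. The means were 9.61 ± 1.32 CPM (SD, n = 4) and 18.7 ± 4.79 CPM (SD, n = 3). The log2 fold change was 0.96 (95% interval 0.55 to 1.38; edgeR adjusted p = 0.0702). DESeq2 gave an adjusted p of 3.38e-04.

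Itgam, the CD11b chain carried by monocytes, macrophages and neutrophils, measured 10.5, 10.6, 9.64 and 14.9 CPM in the control hearts and 22.4, 33.2 and 19.0 CPM in the transferred hearts. Control heart 4 was the highest control, and even the lowest transferred heart lay above it. The means were 11.4 ± 2.36 CPM (SD, n = 4) and 24.9 ± 7.43 CPM (SD, n = 3), and the log2 fold change of Itgam was 1.13 (95% interval 0.66 to 1.604; edgeR adjusted p = 0.0642). Itgax, the CD11c chain typical of dendritic cells and of some macrophages, was rare. Its counts were 1, 9.5, 9 and 3 in the control hearts and 11, 24 and 24 in the transferred hearts, or 0.0486, 0.409, 0.345 and 0.189 CPM against 0.557, 1.13 and 1.19 CPM. Transferred heart 1 was only slightly above the highest control heart, and transferred hearts 2 and 3 were well above it. Itgax passed the filter through the transferred hearts only, so its fold change from the fit across genes is not given.

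Tyrobp, the DAP12 adaptor, gave 23.2, 24.2, 18.8 and 25.1 CPM in the control hearts and 32.9, 52.2 and 30.8 CPM in the transferred hearts. Transferred heart 2 stood far above the rest, and transferred hearts 1 and 3 lay closer to the controls without overlapping them. The means were 22.8 ± 2.80 CPM (SD, n = 4) and 38.7 ± 11.8 CPM (SD, n = 3), and the log2 fold change was 0.76 (95% interval 0.35 to 1.18; edgeR adjusted p = 0.128). Without transferred heart 2 it was 0.49 (edgeR adjusted p = 0.340). Hcst, the DAP10 adaptor best known from natural killer and T cells, had 0, 2, 4 and 4.5 counts in the control hearts and 5, 14 and 2 in the transferred hearts. The groups overlapped, and 6 of the 7 hearts had 5 counts or fewer. In a fit of all genes with at least 1 count, its log2 fold change was 1.47 (edgeR adjusted p = 0.674).

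Among the SIRP and Siglec receptors, Sirpa was the most abundant per length and differed least between the groups. It measured 108, 103, 97.0 and 109 CPM in the control hearts and 124, 137 and 112 CPM in the transferred hearts. The groups were apart by a small margin, between control heart 4 and transferred heart 3. The means were 104 ± 5.43 CPM (SD, n = 4) and 124 ± 12.3 CPM (SD, n = 3), and the log2 fold change of Sirpa was 0.25 (95% interval 0.06 to 0.44; edgeR adjusted p = 0.278). SIRP-alpha of the NOD background, from which NSG mice derive, is known for binding human CD47 well, which is one reason human cells persist in these mice.

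Cd33 gave 9.24, 8.09, 8.41 and 11.7 CPM in the control hearts and 10.2, 16.4 and 13.9 CPM in the transferred hearts. Transferred heart 1 lay within the control range, so the groups overlapped, and the log2 fold change was 0.53 (95% interval 0.10 to 0.96; edgeR adjusted p = 0.300). Its unadjusted p was not under 0.05 without control heart 2, control heart 3, transferred heart 2 or transferred heart 3. Siglece gave 1.85, 2.11, 1.77 and 1.64 CPM against 3.49, 6.49 and 3.21 CPM. Its control hearts were close together, at 1.84 ± 0.198 CPM (SD, n = 4), and all transferred hearts were above them, at 4.40 ± 1.82 CPM (SD, n = 3). The log2 fold change of Siglece was 1.25 (95% interval 0.62 to 1.89; edgeR adjusted p = 0.110).

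Plac8 had the largest fold change of the members. Its counts were 12, 27, 17 and 11 in the control hearts and 204, 180 and 40 in the transferred hearts, which gave 0.584, 1.16, 0.653 and 0.694 CPM against 10.3, 8.47 and 1.98 CPM. Transferred hearts 1 and 2 were high, and transferred heart 3 was less than 2-fold above the highest control heart. The means were 0.773 ± 0.263 CPM (SD, n = 4) and 6.93 ± 4.39 CPM (SD, n = 3). The log2 fold change was 3.15 (95% interval 1.97 to 4.32), with an edgeR adjusted p of 0.0546 and a DESeq2 adjusted p of 1.52e-07.

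The labels write animal identifiers in 2 ways. Letters precede the number for 1 heart of each group, control 1 and transferred 1, and the other 5 hearts carry numbers alone. Among the latter, which are 3 control and 2 transferred hearts, the log2 fold change was 1.03 for Spi1, 1.17 for Itgam and 0.88 for Tyrobp. It was 0.28 for Sirpa, 0.70 for Cd33, 1.40 for Siglece and 2.64 for Plac8, with edgeR adjusted p-values between 0.143 and 0.331. Between the 2 hearts with the prefix, the log2 difference in CPM ranged from 0.14 for Cd33 to 4.15 for Plac8 over these 7 members. The direction was thus the same for the 7 genes within either form, while the size differed most between the forms for Plac8. What the identifiers record is not stated.

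Levels of different genes were compared per length, as CPM per kilobase of combined exons. In control hearts the order was Tyrobp (39.7 ± 4.87, SD, n = 4), Sirpa (16.5 ± 0.860), Spi1 (4.84 ± 0.664), Cd33 (2.99 ± 0.517), Itgam (2.44 ± 0.505), Siglece (0.349 ± 0.0376), Hcst (0.296 ± 0.271), Plac8 (0.184 ± 0.0628) and Itgax (0.0555 ± 0.0362). Neighbours in this order did not overlap over the hearts except Cd33 with Itgam, Siglece with Hcst and Hcst with Plac8. The range of Hcst, which was at 0 counts in control heart 1, also reached that of Itgax. In transferred hearts Tyrobp stood at 67.2 ± 20.5 CPM per kilobase (SD, n = 3), Itgam (5.31 ± 1.59) came before Cd33 (4.30 ± 0.994) with overlap, and Plac8 (1.65 ± 1.05) came before Siglece (0.835 ± 0.345) and Hcst (0.762 ± 0.654), also with overlap. Hcst in turn overlapped Itgax (0.214 ± 0.0778). Tyrobp was the highest per length in all 7 hearts. Itgax was the lowest by group mean, but Hcst lay below it in control heart 1 and in transferred heart 3.

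Ratios inside a heart do not depend on the scaling between libraries, and 4 were fixed. They were Hcst to Tyrobp (adaptors), Itgax to Itgam (integrins), Siglece to Cd33 (Siglecs) and Sirpa to Spi1. The last sets a surface receptor against a transcription factor, so its genes are not of like role. The log2 ratio of Sirpa to Spi1 counts was 3.45, 3.33, 3.66 and 3.35 in the control hearts and 2.80, 2.51 and 2.95 in the transferred hearts. Every transferred heart was below every control heart, and the difference of the means, transferred minus control, was -0.69 (exact two-sided permutation p = 0.0286, the smallest that 35 splits of the hearts allow, and 0.114 after adjustment over the 4 ratios). The transferred minus control difference was 0.66 for Siglece to Cd33 (exact permutation p = 0.0857, adjusted 0.171) and 0.95 for Itgax to Itgam (exact permutation p = 0.286, adjusted 0.381). The latter was 0.45 without control heart 1, 0.59 without transferred heart 3 and 0.59 with 2 added to each count. The difference was 0.66 for Hcst to Tyrobp (exact permutation p = 0.657, adjusted 0.657), a value that rests on few Hcst counts and turned to -0.0717 without control heart 1. With the p-values of the other ratios as they were, adjustment over 4 put Sirpa to Spi1 at 0.114. To pass the threshold of 0.05 it would have needed other ratios at the smallest p as well.

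**Figure D2:**
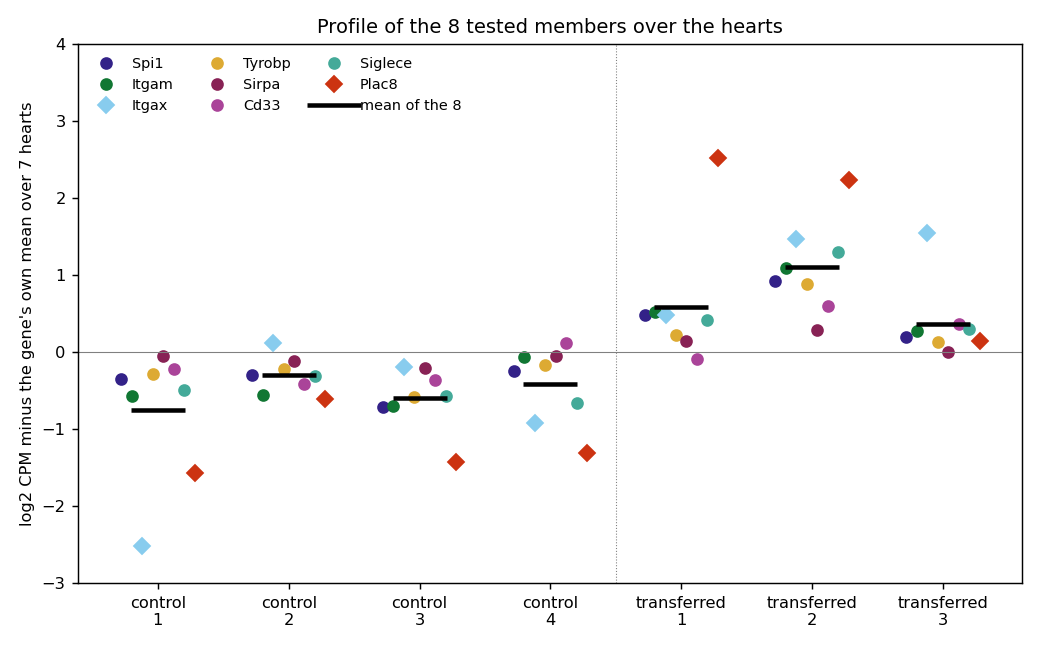
Log2 CPM of the 8 tested members minus each gene's own mean over the 7 hearts (vertical axis) in each heart (horizontal axis; the order of hearts within a group has no meaning), with the mean of the 8 as a black bar. Spi1, Itgam, Tyrobp and Siglece keep close to the bar, while Plac8 and Itgax (diamonds) spread from -2.51 to 2.52 on this log2 scale.

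The members varied together to different degrees. As a measure of likeness, each gene's log2 CPM was centred on its own mean, and the root-mean-square (RMS) difference between genes was taken over the 7 hearts, in log2 units. Spi1 and Tyrobp were the closest pair, at 0.125, followed by Spi1 and Itgam at 0.163. Tyrobp and Cd33 were 0.241 apart and Sirpa and Cd33 0.253. Itgam and Itgax, adjacent genes for chains of the same integrin class, were 0.995 apart, and the largest difference was between Sirpa and Plac8, at 1.47. Low counts widen the values of Itgax. Against the mean profile of the 8 members, the 5 closest genes outside the group with a mean of at least 1 CPM were Coro1a (0.114), Clec4a1 (0.134), Apobr (0.182), Kmo (0.210) and Clec4a3 (0.210). Coro1a encodes the leukocyte actin regulator coronin 1A, and Clec4a1 and Clec4a3 encode C-type lectins of myeloid cells. Siglece, the closest member, was at 0.172 and Plac8 at 1.02. Each member is part of the mean profile, so these values are not comparable with those of genes outside the group. The profile also includes Itgax, which passed the filter through the transferred hearts only.

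Markers of other cell types were read in the same hearts, and their part in the results was not tested. Over all tested genes, 49.7% had a log2 fold change above 0. At an unadjusted edgeR p under 0.05, 7.17% were higher and 5.27% were lower. These shares stand beside the marker counts here and below. Of the 12 macrophage markers in the table, all 12 tested, 12 had a positive log2 fold change and 11 were higher at an unadjusted p under 0.05. Of these, 2 passed the edgeR threshold (Mrc1 and C1qb), beside 0.130% of all tested genes called higher. Both calls were lost with the identifier form as covariate (edgeR adjusted p = 0.0727 for Mrc1 and 0.0727 for C1qb), in hearts with numbers alone and with limma-voom. They were also lost without any single control heart, without transferred heart 1 and without transferred heart 2, where the edgeR adjusted p was 0.153 for Mrc1 and 0.137 for C1qb. Their summed level ran from 571 to 854 CPM in control hearts and from 971 to 1440 CPM in transferred hearts. Neutrophil markers, 9 of 9 tested with a positive change and 0 past the edgeR threshold (8 at an unadjusted p under 0.05), summed to 79.8 to 112 CPM and 114 to 384 CPM. Most of the control sum was G0s2 (a mean of 74.0 CPM over the 7 hearts), a gene of lipid metabolism that other cells also express. Without G0s2 the sums were 40.7, 23.2, 14.7 and 27.3 CPM in the control hearts and 25.3, 324 and 57.7 CPM in the transferred hearts, and transferred heart 1 lay within the control range. The high value was transferred heart 2, where S100a8 reached 72.3 CPM against 2.13 and 9.63 CPM in transferred hearts 1 and 3, the same heart in which 7 of the 9 members were highest. The fold changes without that heart are 0.75 for Spi1, 0.86 for Itgam, 0.86 for Siglece and 2.98 for Plac8 on the log2 scale. For Cd33 and Sirpa they are 0.37 and 0.18, with unadjusted edgeR p-values of 0.101 and 0.0764, so that neither stays under 0.05. Platelet and megakaryocyte markers, 5 of 5 tested with a positive change and 0 past the edgeR threshold (3 at an unadjusted p under 0.05), summed to 114, 149.7 and 28.0 CPM in transferred hearts 1 to 3 and to 22.6 to 40.0 CPM in control hearts. Plac8 was likewise high in transferred hearts 1 and 2.

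Monocyte markers, 7 of 7 in the table tested, summed to 178 to 239.8 CPM in control and 226 to 283 CPM in transferred hearts. This sum is led by Fn1 (a mean of 93.4 CPM), which fibroblasts also make. Dendritic cell markers summed to 2070 to 2283 CPM and 2428 to 2554 CPM, almost wholly from Cst3, which many cells express. Of the other genes on the list, Zbtb46 was at 37.3 to 49.2 CPM, Dpp4 at 4.17 to 10.7 CPM and Siglech at 1.223 to 3.34 CPM, each overlapping between the groups. Batf3 and Cd209a stayed at or under 0.757 CPM. Clec9a had 0 counts in the 4 control hearts and 4, 1 and 0 in the transferred hearts, and Flt3 stayed at or under 0.301 CPM in all 7 hearts. The 7 natural killer markers in the table summed to at most 0.165 CPM in any heart, with Klrb1c, Ncr1 and Klri2 at 0 throughout and Klrk1, the NKG2D receptor that uses DAP10, at a mean of 0.0357 CPM. Of the B cell markers, Pax5 was at 0, and the sum of 6.20 to 8.46 CPM in control and 9.43 to 10.7 CPM in transferred hearts came mostly from Cd37 and Bank1. T cell markers summed to 31.7 to 39.3 CPM and 29.4 to 37.7 CPM, led by Cd28 at 27.5 CPM, with none past the edgeR threshold (1 lower and 0 higher at an unadjusted p under 0.05). Beyond Cd28, Cd247 and Cd4 reached at most 4.86 and 4.42 CPM in any heart. The remaining measured genes of this list, Cd2, Lck and Cd8a among them, stayed at or under 0.924 CPM. Which cells the Cd28 counts come from was not tested. Mast cell markers summed to 51.9 to 62.1 CPM and 40.5 to 62.1 CPM, led by Gata2, which other cells also express. Of the 4 tested, 1 was higher (Hdc) and 2 were lower (Kit and Cpa3) at an unadjusted edgeR p under 0.05. None passed the edgeR threshold, and the groups did not overlap for Hdc and Kit. The summed markers overlapped between groups for red cells (3982 to 14679 CPM and 2736 to 13106 CPM, led by Hbb-bs), cardiomyocytes (65848 to 71366 CPM and 66644 to 75883 CPM), endothelial cells (3092 to 3499 CPM and 2764 to 3243 CPM, led by Fabp4) and fibroblasts (1560 to 2227 CPM and 1452 to 1945 CPM, led by Col3a1). The endothelial genes differed in both directions, 2 higher and 2 lower at an unadjusted p under 0.05. Aqp1, a water channel, had means of 839 CPM in control and 417 CPM in transferred hearts, all 3 of which were lower (log2 fold change -1.01; edgeR adjusted p = 0.0384, and 0.0682 with the identifier covariate). That call was also lost in hearts with numbers alone, with limma-voom, without transferred heart 2 and without any single control heart. Vwf, the von Willebrand factor, had means of 106 and 239 CPM without overlap (edgeR adjusted p = 0.200), and Tie1 was lower without overlap (edgeR adjusted p = 0.185).

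**Figure D3:**
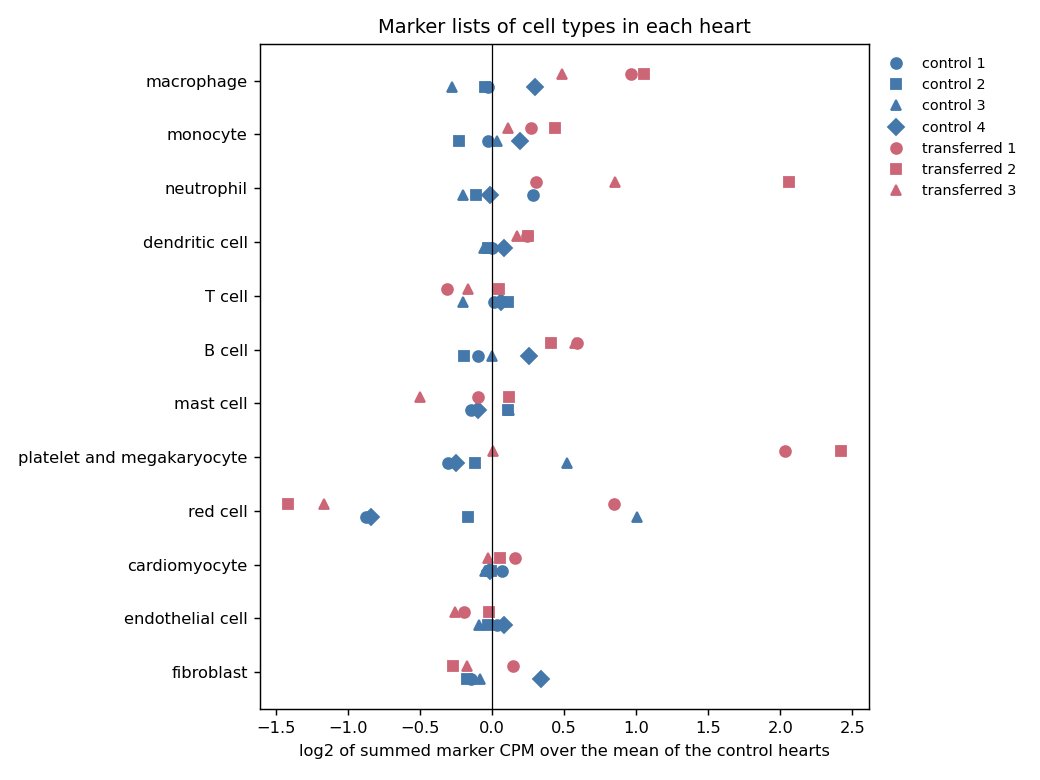
Log2 of the summed CPM of each marker list over the mean of the 4 control hearts (horizontal axis), 1 point for each heart, control in blue and transferred in red, with symbols for the heart's number; natural killer markers, at 0 in control heart 2, are left out. The macrophage sum is higher in all 3 transferred hearts, the neutrophil sum is highest in transferred heart 2, and the platelet sum is high in transferred hearts 1 and 2.

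Set against the summed macrophage markers of the same heart, a ratio taken after the values were seen and given as a description, the groups overlapped for 7 of the 9 members. Over all tested genes, 0.222% were higher and 62.2% were lower without overlap on this scale, whose denominator was itself higher in the transferred hearts. Tyrobp amounted to 2.93 to 3.61% of the macrophage sum in control hearts and 2.43 to 3.63% in transferred hearts. Spi1 amounted to 1.24 to 1.52% and 1.31 to 1.66%, and Itgam to 1.54 to 1.74% and 1.65 to 2.31%. The groups also overlapped on this scale for Itgax, Hcst, Cd33 and Siglece. Plac8 and Sirpa were the members without overlap, in opposite directions. Plac8 was at 0.0813 to 0.173% in control and 0.204 to 0.763% in transferred hearts. Sirpa was at 12.7 to 17.0% in control and 9.13 to 11.6% in transferred hearts, on the side of most tested genes.

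The pathways around the members were read from 6 lists of 138 other genes, of which 78 were in the table and 61 were tested. Over the lists, 1 gene passed the edgeR threshold (Pirb). It was 0 with the identifier form as covariate, in hearts with numbers alone, and without transferred heart 2 or any single control heart. This stands beside 0.130% of all tested genes called higher. DESeq2 called 20 of the listed genes in either direction, beside 250 of all 12129 genes to which it gave a p-value. Limma-voom called 0 of the listed genes. Sirpb1a passed the filter on low counts through the transferred hearts only and is left out of the counts that follow. Sirpb1b, at 0.195 and 0.442 CPM in control hearts 1 and 4, also needed transferred hearts to pass the filter. It is kept in these counts, which lean on it to that extent. Of the other 60 tested genes, 25 were higher and 2 were lower at an unadjusted p under 0.05, beside 7.17% and 5.27% of all tested genes. The lists share genes, and a median below stands beside -0.00199 (log2) over all tested genes. Partners on other chromosomes, such as Itgb2, Syk, Trem2 and Cd47, are not analysed here.

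Among 13 tested genes of ITAM signalling, 6 were higher and 1 lower at an unadjusted p under 0.05, and 0 passed the edgeR threshold (median log2 fold change 0.43). Fcer1g, the other main ITAM adaptor of myeloid cells, measured 14.9, 15.4, 16.7 and 16.8 CPM in the control hearts and 34.8, 34.0 and 22.3 CPM in the transferred hearts. The groups did not overlap, and the fitted change in log2 units, 0.93 (edgeR adjusted p = 0.0515), lay inside the interval of Tyrobp. The Src-family kinase Fgr, which can phosphorylate such tails, had a fitted log2 change of 2.09 (edgeR adjusted p = 0.102). Fgr was highest in transferred heart 2, at 6.26 CPM, against 1.47 and 2.82 CPM in the other transferred hearts.

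Of 6 tested receptors that pair with DAP12 or DAP10, 3 were higher and 0 lower at an unadjusted p under 0.05, with 0 past the edgeR threshold (median log2 fold change 0.78). Clec5a, a lectin receptor that signals through DAP12, stood at 4.57 ± 0.597 CPM (SD, n = 4) and 8.75 ± 1.67 CPM (SD, n = 3) (edgeR adjusted p = 0.0770). Sirpb1a and Sirpb1b, activating relatives of SIRP-alpha, had counts of 4.5, 0, 4 and 3 and of 4, 16, 14 and 7 in the control hearts. In the transferred hearts they had 30.5, 40.67 and 10.5 and 44.5, 97.17 and 11.5 counts. Sirpb1b overlapped between the groups (edgeR adjusted p = 0.165) and needed transferred hearts to pass the filter. Fractional values were present in 4 of 7 hearts for Sirpb1a and 3 of 7 for Sirpb1b. Such values can arise when reads are divided between near-identical genes, so which of the Sirpb1 genes differed is uncertain. Sirpa itself had whole counts in all 7 hearts.

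In the SIRP-alpha list, 3 of 6 tested genes were higher and 0 lower at an unadjusted p under 0.05, with 0 past the edgeR threshold (median log2 fold change 0.38). Of the 3, 2 were Sirpb1c and Sirpb1b, the latter passing the filter only with the help of transferred hearts. The remaining gene was Ptpn6, the phosphatase SHP-1 that SIRP-alpha and Siglec-E can recruit, at 10.6 ± 1.02 CPM (SD, n = 4) and 16.9 ± 3.10 CPM (SD, n = 3) (log2 fold change 0.67; edgeR adjusted p = 0.108).

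The list of inhibitory receptors and Siglecs had 13 tested genes, of which 9 were higher and 0 lower at an unadjusted p under 0.05 (median log2 fold change 0.997). Pirb, an inhibitory receptor for class I molecules, was higher in the transferred hearts. Its mean was 9.88 ± 1.14 CPM (SD, n = 4) in control hearts and 28.7 ± 10.9 CPM (SD, n = 3) in transferred hearts (edgeR adjusted p = 0.0384), with fractional values in 7 of 7 hearts, so that reads shared with its relatives cannot be told apart. The call did not hold with the identifier form as covariate (edgeR adjusted p = 0.0682), in hearts with numbers alone (edgeR adjusted p = 0.0591) or without transferred heart 2 (edgeR adjusted p = 0.101), nor without any single control heart or with limma-voom. Clec4a2, an inhibitory lectin, and Cd72, a receptor of B cells and some macrophages, had log2 fold changes of 1.20 and 1.92 (edgeR adjusted p = 0.0572 for Clec4a2 and 0.0572 for Cd72). Other Siglecs are named here outside the rule for named genes. Siglec1 stood at 64.6, 26.2 and 18.6 CPM in transferred hearts 1 to 3, against 7.20 to 15.1 CPM in control hearts (edgeR adjusted p = 0.163). Siglech, a DAP12 partner, stood at -0.58 on the log2 scale of change (edgeR adjusted p = 0.496), and Siglecg was at 0 in all 7 hearts.

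Integrin subunits and activators gave 13 tested genes, 4 higher and 1 lower at an unadjusted p under 0.05 and 0 past the edgeR threshold (median log2 fold change -0.03). Itgal, the CD11a chain of LFA-1 and another partner of the beta-2 chain, measured 2.53, 2.97, 3.93 and 1.70 CPM in control and 5.01, 11.0 and 6.77 CPM in transferred hearts, without overlap (log2 fold change 1.43; edgeR adjusted p = 0.108). Apbb1ip, the talin recruiter RIAM, differed by 0.76 in log2 units (edgeR adjusted p = 0.0995). Itga8, an integrin chain of mesenchymal cells, was lower, at 26.8 ± 4.04 CPM (SD, n = 4) and 17.7 ± 2.10 CPM (SD, n = 3) (edgeR adjusted p = 0.127).

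Of 14 tested myeloid transcription factors, 3 were higher and 0 lower at an unadjusted p under 0.05, and 0 passed the edgeR threshold (median log2 fold change 0.29). They included Irf5, a driver of inflammatory macrophage genes, and Relb, a subunit of NF-kappa-B. Their log2 fold changes were 0.61 and 0.32, both below that of Spi1 (0.96), with edgeR adjusted p-values of 0.178 and 0.255. The difference between these genes and Spi1 was not tested.

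**Figure D4:**
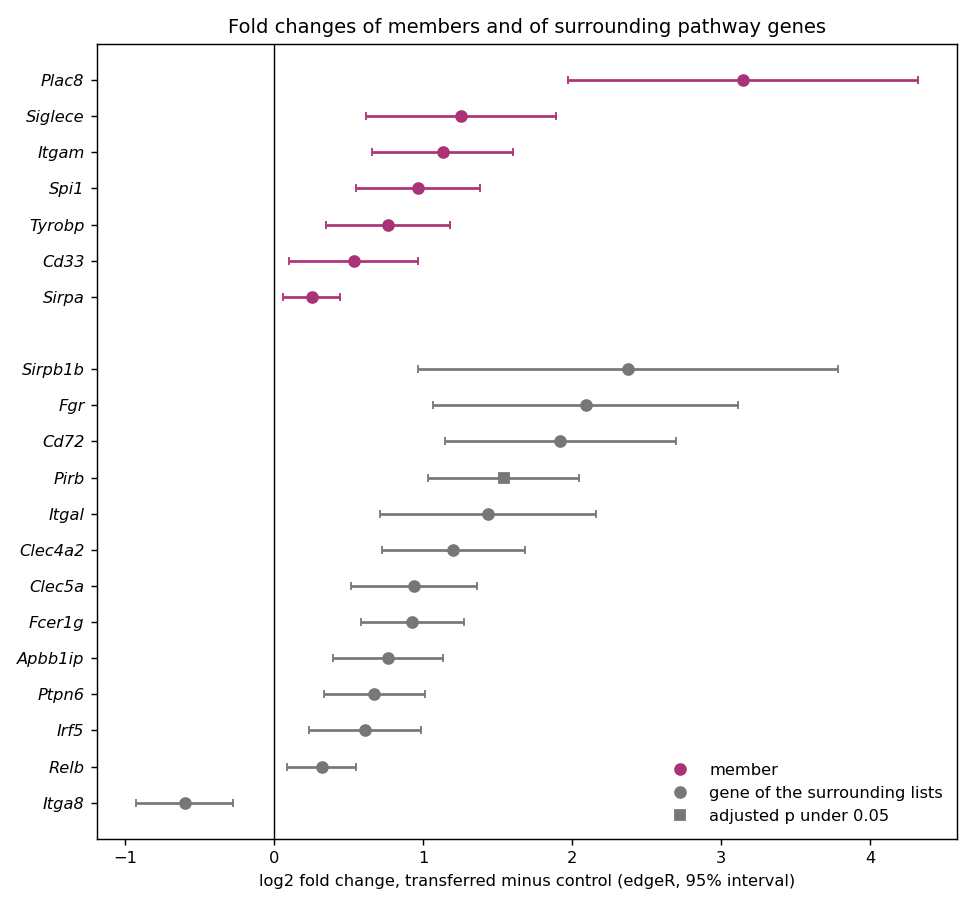
Log2 fold change, transferred minus control, with its 95% interval from the edgeR fit (horizontal axis) for 7 members (purple) and for 13 of the genes with the smallest p-values in the surrounding lists (grey); Itgax and Sirpb1a, which passed the filter through the transferred hearts only, are left out, and a square marks an adjusted p under 0.05. Of the members, Plac8 has the largest value (3.15) and Sirpa the smallest (0.25), Pirb carries the square, and of the genes plotted Itga8 is the one below 0.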

How the data were processed

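RNA sequencing of polyadenylated RNA from 7 hearts was analysed. The submitters' processing notes name cutadapt 2.5, STAR 2.7.2b, featureCounts 1.6.4, DESeq2 1.22.2 and the build GRCm38.p6, without settings. The authors deposited estimated counts per gene, not normalized; 4.63% of values had a fractional part, and values were rounded for the tests. Of the table, 20343 rows were complete, on chromosomes 1 to 7 and the start of 8, and a last incomplete row (1) was dropped; other genes are not analysed here. Same-group libraries differed by far more than sampling noise (chi-square per degree of freedom 17.4 to 77.2 over 9 pairs), so none was a repeat.

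Genes were filtered with filterByExpr, scaled with TMM and tested with the robust quasi-likelihood test of edgeR 4.0.16 in R 4.3.3, with Benjamini-Hochberg adjustment over 7667 genes and a threshold of 0.05; the procedure was tested on simulated data. Alternatives used other scalings and filters, DESeq2 1.42.0, voom of limma 3.58.1, the identifier form as a covariate, and leaving hearts out. Likeness used log2 of counts plus 0.5 as CPM, and ratios log2 of counts plus 0.5. Groups came from the treatment in the labels, and replicate numbers, in accession order, only name hearts.

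The members and lists were chosen with earlier results of these data known. Named genes were all members, the 3 genes with the smallest p in each of 6 context lists, the highest gene of each of 13 marker lists, and the 5 genes most like the members. Some genes that the rule names are not reported here. Genes named outside this rule were chosen after their values were seen.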

Additional observations from a re-analysis of the deposited data

Results flagged for a closer look

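The 4 control hearts were searched, for 41 results, for a value far from the rest, and 3 results were marked, where chance marks about 1 in 20 (2.05 expected). The log2 CPM of Irf5 was 2.59 in control heart 4, while control hearts 1 to 3 had 2.78 to 2.80. The log2 CPM of Sirpb1a was -5.54 in control heart 2, where it had 0 counts, and the remaining control hearts had -2.53 to -2.04. The log2 of the summed fibroblast markers was 11.12 in control heart 4 and 10.61 to 10.69 in control hearts 1 to 3. Among the 9 members and the 4 ratios, no control heart was marked.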

How the results depend on the processing

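The 7 tested members other than Itgax had fold changes above 0 under each alternative, and the count at an unadjusted p under 0.05 stayed between 5 and 7 of 7. The number past the threshold did not hold. Against 0 members, column total scaling gave 1 (Plac8), all genes with at least 1 count gave 2 (Spi1 and Itgam) and DESeq2 gave 5. These settings called 0.339%, 0.544% and 1.57% of genes higher, the last among all genes with a p-value. Leaving out 1 heart at a time gave from 0 to 4 members, the 4 (Spi1, Itgam, Siglece and Plac8) without transferred heart 3, where 1.64% of genes were called higher. Over all alternatives the log2 fold change ran from 2.64 to 3.59 for Plac8, from 0.49 to 0.90 for Tyrobp and from 0.18 to 0.32 for Sirpa. Against 1 listed pathway gene, RLE scaling gave 2, column total scaling 4, all genes with at least 1 count 11 and DESeq2 20. Over all genes these settings called, in either direction, 22 of 7667, 35 of 7667, 81 of 12132 and 250 of 12129. The identifier covariate, hearts with numbers alone and limma-voom gave 0, and leaving out 1 heart gave from 0 to 16: 16 without transferred heart 3, 2 without transferred heart 1, and 0 without transferred heart 2 or any single control heart. Over all genes, 140 of 7787 were called in either direction without transferred heart 3 and 27 of 7805 without transferred heart 1. The Hcst to Tyrobp ratio turned to -0.15 in hearts with numbers alone and to -0.0717 without control heart 1, and ran from -0.0717 to 1.13 when 1 heart was left out. The newer quasi-likelihood method of edgeR, added after seeing the data, changed no count of calls by over 1.5 times. For these shifts the cause was not tested. Counts near the floor limit what can be read of Hcst and Itgax. No paired analysis was possible because the labels share fewer than 2 replicate numbers between the groups.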

Other observations

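Plac8 departed most from the other members, so the genes whose profile came closest to it were looked up after its values were seen, with the same RMS measure over the 7 hearts. They were Fcgr4 (0.417), an activating Fc receptor of monocytes and neutrophils, Zbp1 (0.423), an interferon-induced nucleic acid sensor, and Spn (0.456), the leukocyte sialoglycoprotein CD43. Sirpb1b (0.632) and Cd72 (0.672) followed. Zbp1 measured 27.4, 7.76 and 2.52 CPM in transferred hearts 1 to 3, and Spn 5.17, 5.50 and 0.988 CPM. Fcgr4 measured 3.29, 5.60 and 1.04 CPM. In control hearts the highest values of Zbp1, Spn and Fcgr4 were 1.89, 1.29 and 0.646 CPM. None of the 5 passed the edgeR threshold over all genes (adjusted p from 0.0572 to 0.165).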
